A study of Drosophila melanogaster with 2 samples.

Results

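ATAC-seq uses a transposase to cut and tag accessible DNA, and it was run here on cells of the Drosophila line ML-DmD17-c3, called D17, in 2 libraries with no treatment named. The line is known to come from the larval haltere imaginal disc, the sac of cells that forms the balancing organ behind the wing. Both libraries belong to 1 group with no contrasting condition, and the labels do not say whether they came from separate cultures. Their result was deposited as 1 list of 26571 accessible regions that names no replicate. Its region names read HD in place of D17, and the labels do not explain HD; the list is taken as that of D17 since the libraries used here are all D17. Every value below is therefore the authors' value for the group, without a replicate spread, and differences between kinds of region are descriptions without a test of replicates. The regions described here lie on the arms 2L, 2R, 3L and 3R and have their summit, the base with the most reads, within 200 bp of an end of an annotated protein-coding gene. They numbered 1638, or 7.17% of the 22832 regions on these arms, and were chosen by position alone, not by any measured value. The gene table gives the 2 outer coordinates of each gene without its strand, so a gene end is either the start of transcription or its stop, and these cannot be told apart here.

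Gene ends are where RNA polymerase loads and leaves. Active promoters keep a nucleosome-depleted stretch at the start site, and a looser gap is often found at the end of a transcription unit. Drosophila promoters are commonly grouped into those of housekeeping genes, active in nearly all cells, and those of developmental regulators, which are tied to distant enhancers and are often Polycomb targets. In a bulk measurement, a site open in more cells and a site open for longer in each cell cannot be told apart.

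The gene-end regions had higher folds than the other autosomal regions. Fold is the read pileup at the summit over the local background, as deposited. Its median was 2.205 over gene-end regions (quartiles 1.81 and 3.004, range 1.35 to 10.9) and 1.88 over the other 21194 autosomal regions (quartiles 1.68 and 2.22, range 1.29 to 28.5). A fold of 3 or more was found in 412 gene-end regions, or 25.2% (95% Clopper-Pearson interval 23.1% to 27.3%), and in 8.11% of the others (7.74% to 8.48%). A fold of 5 or more was found in 6.53% of gene-end regions and in 1.87% of the others. These intervals treat regions as independent and cover counting only.

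Regions with summits 201 to 500 bp from a gene end numbered 3116, and their folds were like those of regions deep inside genes. Their median was 1.90, against 1.88 for the 14463 regions inside genes and 1.89 for the 3615 regions between genes, both over 500 bp from any end. A fold of 3 or more was seen in 7.89% of the 201 to 500 bp regions, 7.39% of the interior regions and 11.1% of those between genes. The highest folds of the autosomes were not at gene ends: gene ends stopped at 10.9, while the interior of genes reached 28.5.

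**Figure D1:**
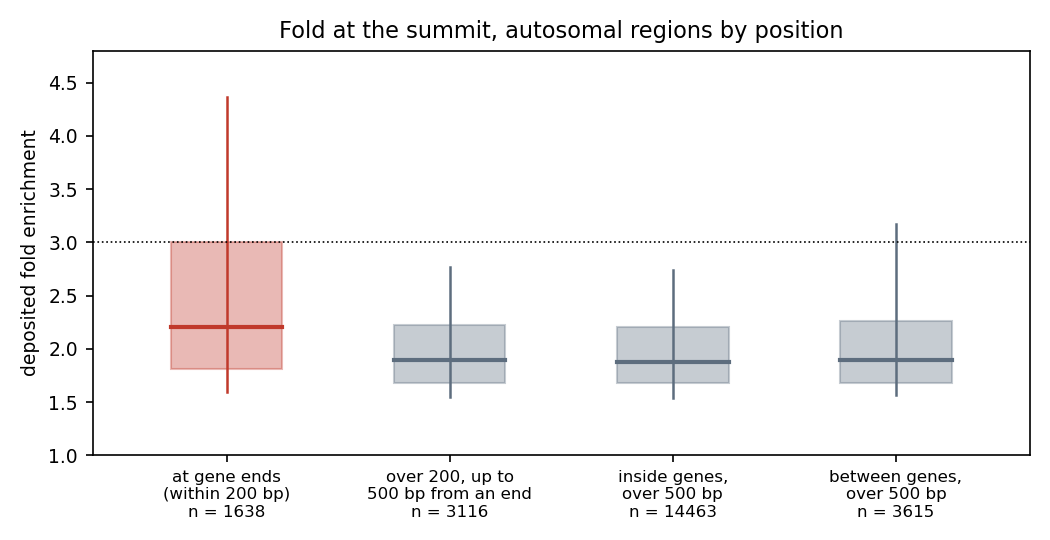
Deposited fold enrichment at the summit (y axis) for gene-end regions and the 3 other kinds of autosomal region. Boxes span the quartiles, the thick line is the median, whiskers run from the 10% to the 90% point and the dotted line marks a fold of 3; the gene-end box reaches up to that line, with a median of 2.205, and the other medians lie at 1.88 to 1.90.

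The higher folds of gene-end regions were seen on each arm and at each level of local background. The share with a fold of 3 or more was 27.6% of gene-end regions and 8.43% of the others on 2L, 21.4% and 8.51% on 2R, 26.3% and 8.36% on 3L, and 25.8% and 7.27% on 3R. Gene-end regions had a median local background of 51.95 reads, against 48.1 in the others. At the lowest background in the list, 44.4 reads, the median fold was 2.16 in 495 gene-end regions and 1.90 in 8409 others. Where the background exceeded 60 reads it was 2.294 in 505 gene-end regions and 1.82 in 5122 others. The summit pileup recovered from the deposited values had a median of 123 reads in gene-end regions (62 to 1092) and 100 in the others (62 to 2908).

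Width at gene ends was close to that inside genes, and it moved with fold. The median width was 516.5 bp (197 to 4136 bp) at gene ends, 519 bp at 201 to 500 bp from an end, 522 bp inside genes and 397 bp between genes. Among regions of 300 bp or less, 3.15% of gene-end regions and 1% of the others reached a fold of 3. Over 1000 bp it was 47.6% of 273 gene-end regions and 16% of 3492 others. The widest gene-end region, 4136 bp at 3L 7911381 to 7915516, lay at an end of pbl, a gene needed for cytokinesis, with a fold of 3.05. Next in width were regions at pzg (3505 bp, fold 2.87), a chromatin-associated zinc finger gene, and at SF2 (3028 bp, fold 3.32), a splicing factor gene.

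The exact place of the summit differed between strong and weak gene-end regions. Of the 412 with a fold of 3 or more, 56.3% had the summit outside the gene whose end was nearest, and the median summit lay 16 bp outside the end. Of the 1226 with a lower fold, 44.5% were outside, and the median lay 10.5 bp inside. Summits outside every coding gene made up 49.03% of those at a fold of 3 or more and 34.75% of the weaker ones. The nearest end was the lower coordinate of its gene in 798 cases and the upper in 840.

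Counted per base of sequence at each distance, strong summits peaked across the gene end. From 150 bp outside to 49 bp inside, each 50-bp step held 6.29 to 7.60 summits of fold 3 or more per 100 kb, against 1.96 per 100 kb over the autosome arms. The rate dropped to 2.68 and 2.64 per 100 kb from 50 to 149 bp inside the gene. It was back at 4.77 from 150 to 199 bp and 5.19 from 200 to 249 bp inside, the last of these lying at or past the 200 bp limit. Weak summits had a local peak at the end too, with 19.4 per 100 kb in the last 50 bp outside and 18.7 in the first 50 bp inside, but this was close to the autosomal 19.01. They shared the low at 50 to 99 bp inside, with 9.28 per 100 kb, and were most frequent farther in, with 55.9 per 100 kb at 550 to 599 bp.

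**Figure D2:**
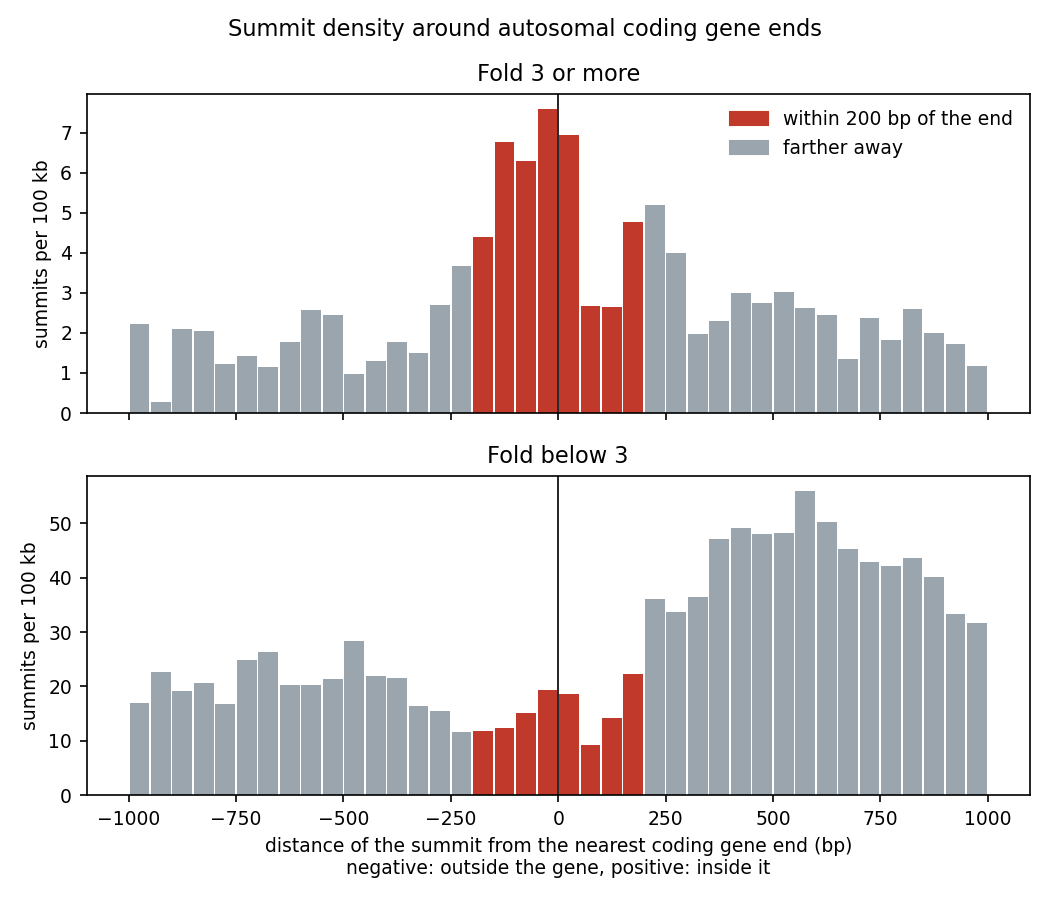
Summits per 100 kb of sequence (y axis) in 50-bp steps of distance from the nearest coding gene end (x axis, negative outside the gene), for regions of fold 3 or more above and of lower fold below. Red bars lie within 200 bp of the end; strong summits peak at 7.60 just outside the end with a low near 2.6 inside, while weak summits are most frequent deeper inside the gene.

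The sequence within 200 bp of a coding gene end amounted to 7.82 Mb, or 7.18% of the span of the arms, and held 7.17% of the regions but 19.3% of those with a fold of 3 or more. It therefore carried 20.95 regions per 100 kb, against 20.96 over the arms. Strong regions stood at 5.27 per 100 kb within 200 bp, 2.78 from 201 to 500 bp, 1.77 deep inside genes and 1.265 between genes. The weaker regions stood at 15.7, 32.4, 22.2 and 10.1 in the same order. The span includes sequence where reads cannot be mapped, which bears most on the figure between genes.

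Most of the gene-end regions reached across the end itself. The interval covered the nearest end in 1384 of them, or 84.5%, and extended by a median of 171 bp outside the gene and 335 bp inside. With a fold of 3 or more, 98.8% covered the end, with medians of 270 bp outside and 441 bp inside. Below that fold, 79.7% did, with 146 and 300 bp. The rule places each summit within 200 bp of an end, so covering the end depends on width. Median widths were 758 bp at a fold of 3 or more and 448 bp below it.

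Close to the limit of the rule, values changed little from one side to the other. The 170 regions with summits 181 to 200 bp from an end had a median fold of 2.01, with 20.6% at 3 or more, and the 214 at 201 to 220 bp had 2.00, with 16.8%. At exactly 200 bp the highest fold was 3.42, at CG7518 on 3R, and at 201 bp it was 2.82, at rgr on 2R.

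The 12 gene-end regions with the highest fold lay mostly at genes for transcription factors, cell surface proteins and signalling components. The highest was at 3R 30765475 to 30766708, with its summit 193 bp outside the lower end of zfh1, which encodes a zinc finger and homeodomain transcription factor. Its fold was 10.9 (95% Poisson interval of the pileup 10.1 to 11.65), with 799 reads over a background of 72.6. At 2L 16485661 to 16486551, 73 bp inside the upper end of dac, a leg and eye patterning gene, the fold was 10.7 (9.82 to 11.7) from 533 reads. The region at the lower end of jing, a zinc finger gene linked to Polycomb function, had 10.4 (9.51 to 11.3; 2R 6501054 to 6502413). That at the lower end of tsh, which specifies trunk and proximal appendage, had 10.3 (9.57 to 11.15; 2L 21828054 to 21829217).

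Among the genes for surface and adhesion proteins, caps, a leucine-rich repeat receptor gene, had a fold of 10.2 (9.36 to 11.01) with its summit 10 bp outside the lower end (3L 13228347 to 13229074). The region at sns, which encodes an immunoglobulin protein of myoblast fusion, had 9.725 (9.004 to 10.5; 2R 8798078 to 8799149). The bHLH transcription factor gene tx had 9.73 (8.89 to 10.6; 3R 26440387 to 26441256). At stwl, a gene needed in the female germline, the fold was 9.06 (8.40 to 9.76; 3L 14409449 to 14410790).

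The Wnt ligand gene wg had a fold of 8.64 (7.81 to 9.54) at 2L 7306863 to 7307633, with 391 reads over the lowest background. The kinase gene IP3K1 had 8.50 (8.002 to 9.02; 2L 9782119 to 9783061), and its 1092 reads, over a background of 127.6, were the highest pileup of any gene-end region. The posterior selector gene en had 7.95 (7.29 to 8.65; 2R 11526005 to 11528480), with the summit 199 bp inside its upper end, just within the limit. The G protein gene Galphai closed the 12 with 7.91 (7.12 to 8.755; 3L 6979259 to 6980322). Intervals of neighbours in this order overlapped in all 11 cases, so the order among neighbours is not resolved by the read counts, whereas those of zfh1 and Galphai did not overlap.

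**Figure D3:**
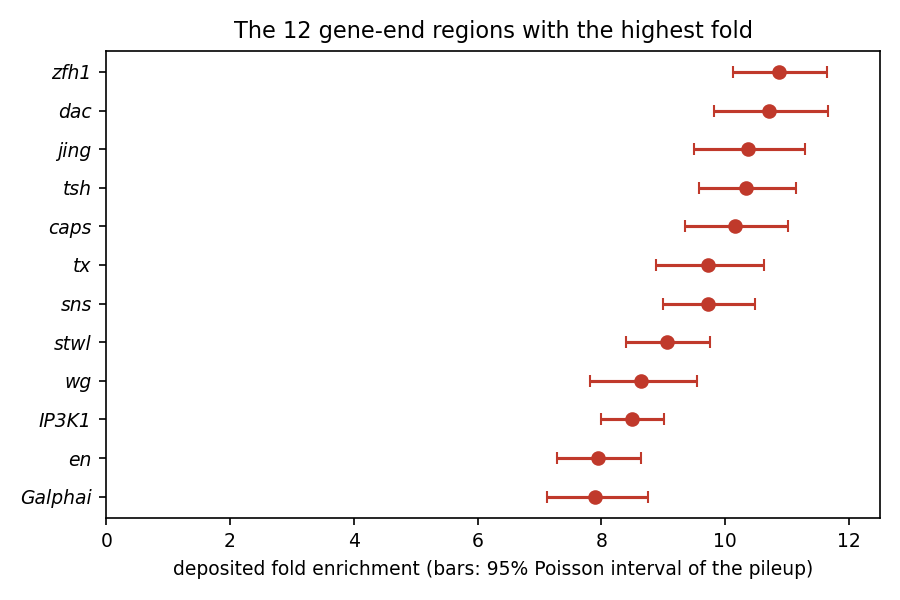
Deposited fold (x axis) of the 12 gene-end regions with the highest fold, labelled by the gene at whose end they lie. Bars are 95% Poisson intervals of the summit pileup at fixed background; folds run from 10.9 at zfh1 down to 7.91 at Galphai, and each interval overlaps that of its neighbour.

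Folds just below these, named after their values were seen, included those at the GATA factor gene grn (7.89), the Wingless target tow (7.67), the oxidase gene Duox (7.66) and the LIM-homeodomain gene tup (7.63). The FGF ligand gene bnl had 7.52 and the Toll-related receptor gene 18w 7.50; CG32486 had 7.485.

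At the level of genes, 1818 of 11645 autosomal coding genes, or 15.6%, had such a region at one of their ends, and 444, or 3.81%, had one of fold 3 or more. For a fold of 5 or more it was 114 genes, or 0.979%. The 1638 regions touched 1840 of the 23290 gene ends, and no end held more than 1 of them.

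Genes with a region at an end were longer and had more annotated transcripts than the rest. Their median length was 3495 bp and their mean number of RefSeq transcripts 2.68, against 1952 bp and 2.05 in genes without one. With a fold of 3 or more at an end the median length was 7691 bp and the mean transcript number 3.51. Among genes of like length the transcript numbers of genes with and without a region were close. The means were 1.27 and 1.23 up to 1 kb, 3.30 and 3.34 from 5 to 20 kb, and 5.67 and 5.29 over 20 kb. Of genes up to 1 kb, 10.5% had a region at an end and 0.777% one of fold 3 or more. Of genes over 20 kb, 31.3% and 13.7% did. The gene's highest such fold had a median of 1.91 in the shortest class and 2.82 in the longest. Genes known by a CG number alone made up 32.8% of genes with a region at an end, 25.5% of those with a fold of 3 or more and 45.4% of those without a region.

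**Figure D4:**
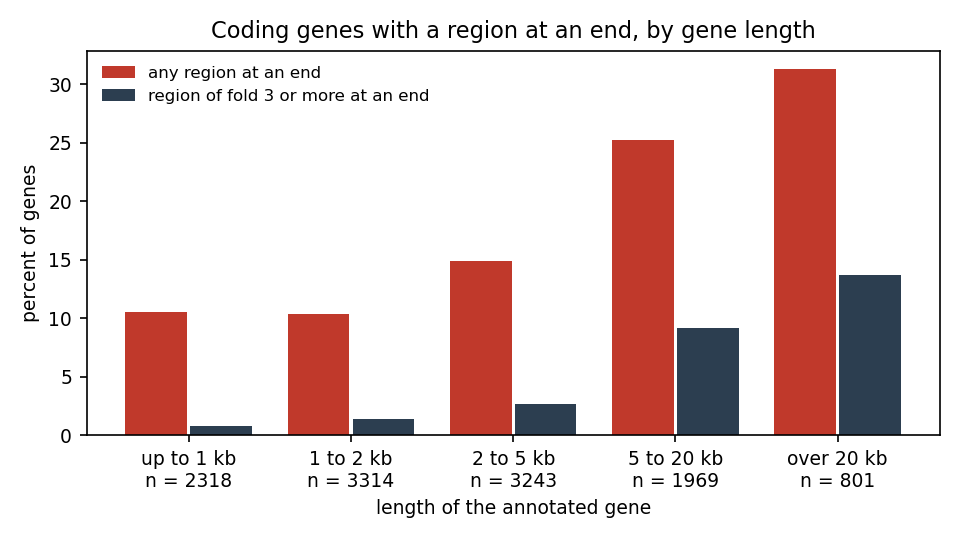
Percent of autosomal coding genes (y axis) with any gene-end region and with one of fold 3 or more, by length of the annotated gene (x axis, number of genes below each class). Both shares are higher in long genes, reaching 31.3% and 13.7% over 20 kb, against 10.5% and 0.777% up to 1 kb.

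Further accessible regions inside the gene were more numerous in longer genes, with or without a region at an end. In genes over 20 kb, those with a gene-end region held a mean of 9.39 further summits inside, over 200 bp from any end, and those without held 8.39. From 5 to 20 kb both kinds held 2.71. From 1 to 2 kb the means were 0.367 with a gene-end region and 0.649 without.

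Distance to the next gene showed little relation to having a region at an end, but some to its fold. A region was present at 14.8% of genes with another gene's end within 200 bp and at 16.8% of genes with none within 5000 bp. The shares with a fold of 3 or more were 2.95% and 6.68%.

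One region served the ends of several genes in 191 cases. The summit was within 200 bp of ends of 2 genes in 181 regions and of 3 genes in 10. Their median folds were 2.13 and 1.89, against 2.21 in the 1447 regions at 1 gene, and 16.6%, 10% and 26.3% had a fold of 3 or more. In 123 of the pairs the ends faced each other across a gap, in 31 the genes overlapped, and in 27 both genes ended on the same side. The strongest region at 3 genes had a fold of 3.035 (2.63 to 3.48) at 3R 15263217 to 15263999. It lay at the ends of Set, Su(var)3-9, a histone H3K9 methyltransferase gene, and eIF2gamma, a translation initiation factor gene. Regions at sky, Mtp and CG43739 (2.315) and at Snx16, CG4975 and CG4984 (2.27) followed.

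Separate regions at both ends were rare. They were found in 21 genes, and in 1 further gene, CG7377, a single region lay within 200 bp of both ends. In none of these 22 did both ends reach a fold of 3. Over all gene-end regions 25.2% reached that fold. By this share alone few of the 22 would reach it at both ends, so this is not read as a trait of these genes. Su(z)2, a Polycomb group gene, had 7.09 (6.54 to 7.67) at its lower end and 1.56 (1.23 to 1.97) at its upper end, on 2R, where the gene spans 11411 bp. The Mediator subunit gene MED19 had 5.04 (4.52 to 5.598) at its upper end and 2.01 (1.68 to 2.39) at its lower. ICA69 had 3.63 (3.13 to 4.185) at its lower end and 1.40 (1.10 to 1.75) at its upper. In each of these 3 genes the intervals of the 2 ends did not overlap. They were chosen for the highest fold at either end, which favours such a gap. At other genes the ends were close, as at CG5567 (2.03 at the lower end and 2.01 at the upper).

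Among the 26 gene lists, leg and antenna factors (61.5%), signalling ligands (57.1%) and wing and haltere factors (56%) had the highest shares of genes with a region at an end. The median fold of those genes was 4.09, 2.995 and 4.94 in that order, and it was 4.65 in the Polycomb group list. Of 25 factors of wing and haltere disc patterning, 14 had one (56%, against 15.6% of all autosomal coding genes) and 12 had a fold of 3 or more (48% against 3.81%). The highest were zfh1, tsh and en, given above. Others included caup (6.73), an Iroquois gene, Dr (6.58), an msh-type homeobox gene, nub (5.18), a POU factor gene of wing growth, salr (4.70) and salm (4.255), a zinc finger pair, and rn (3.44). The 2 lowest were knrl (2.65) and nab (1.501). Of 13 leg and antenna factors, 8 had a region at an end and 6 a fold of 3 or more. These included dac, ss (5.71), which sets antennal identity, danr (4.68) and Dll (4.19), the distal appendage gene.

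Signalling genes ranged widely. Of 21 ligand genes, 12 had a region at an end, 6 of them with a fold of 3 or more: wg, bnl (7.52), Ser (4.98), a Notch ligand gene, hh (3.89), pyr (3.285), an FGF gene, and Wnt6 (3.09). No summit lay within 200 bp of an end of Ilp8, Krn, daw, dpp, gbb or spi. The nearest was only 212 bp off at Ilp8, with a fold of 4.69, and 303 bp off at daw, with 7.06. Of 20 receptor genes 6 had one, with fz, the Wnt receptor gene, at 7.36, ptc, the Hedgehog receptor gene, at 3.96 and wit, a BMP type II receptor gene, at 3.405; put (2.87), Pvr (2.36) and Alk (1.98) were lower. Egfr and InR had none. A region at an end was thus found in 30.0% of the receptor list, against 15.6% of all autosomal coding genes. Of the 15 receptor genes over 5 kb, 6 had a region at an end and 3 a fold of 3 or more. Among all genes of that length the shares were 27.0% and 10.5%. With so few genes the receptor list is not set apart from these shares.

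Notch target genes with a region at an end had a median fold of 1.97, near the 1.91 of all such genes up to 1 kb. Of 13 genes listed, with a median length of 978 bp, 6 had a region at an end (46.2%). The share was 15.6% of all autosomal coding genes and 10.5% of those up to 1 kb. Only hry, a bHLH repressor gene, passed 3, with 6.765 (6.18 to 7.39). That is 7.69% of the list, against 3.81% of all genes and 0.777% of those up to 1 kb. E(spl)m3-HLH had 2.94 and E(spl)mgamma-HLH 1.98. At E(spl)mbeta-HLH the nearest summit was 278 bp off, with a fold of 5.58. Genes of the ecdysone response had 4 of 11, led by the nuclear receptor gene ftz-f1 (5.42) and Eip63E (3.84), a cyclin-dependent kinase gene. EcR itself, the hormone receptor gene, had none. Segment identity is set by the Hox genes, and 3 of these 8 had one: lab (3.70, interval 3.17 to 4.31), Scr (2.78) and Dfd (2.16). All 11 ecdysone response genes and all 8 Hox genes are over 5 kb. Of all genes of that length, 27.0% had a region at an end and 10.5% one of fold 3 or more. A fold of 3 or more was found at 3 of the ecdysone response genes and 1 of the Hox genes.

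Polycomb group genes had 6 of 18 (33.3%, against 15.6% of all autosomal coding genes). The fold was high at jing (10.4), Su(z)2 (7.09) and Psc (6.79, interval 6.31 to 7.30). It was lower at Asx (2.51), RYBP (2.42) and Jarid2 (1.87). Of the 8 over 5 kb, 5 had a region at an end and 3 a fold of 3 or more. Among all genes of that length the shares were 27.0% and 10.5%. No summit lay within 200 bp of an end of E(z), the H3K27 methyltransferase gene, or of Caf1-55. Trithorax group genes had 2 of 14, ash2 (1.94) and ash1 (1.502), and insulator protein genes 2 of 14, Clamp (2.42) and Chro (2.00). Both shares, 14.3%, are close to the 15.6% of all genes. However, 10 of the Trithorax group genes and 4 of the insulator protein genes are over 5 kb, where the share is 27.0%. With lists this short the absence of a fold of 3 is read against a share of 3.81%, or 10.5% over 5 kb.

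Lists of general cell machinery had a region at an end in 9.52% to 23.3% of genes, on either side of the 15.6% of all genes. Their median gene lengths ran from 910 to 2944.5 bp, with 1288 bp for cytoplasmic ribosomal protein and 1025.5 bp for oxidative phosphorylation genes. Among all genes the share was 10.5% up to 1 kb, 10.4% from 1 to 2 kb and 14.9% from 2 to 5 kb. Those 2 lists stood above each of these shares. Cytoplasmic ribosomal protein genes had 17 of 73 (23.3%), with RpL3 at 3.16 (2.77 to 3.585) and RpL14 at 2.96. The 17 include RpLP0-like (2.21), listed by its name. Genes named as paralogues, such as RpL10Aa and RpL10Ab, were not separated in this list. Mitochondrial ribosomal protein genes had 10 of 63 (15.9%), with mRpL53 at 4.41 and mRpL4 at 2.65. Oxidative phosphorylation genes had 13 of 66 (19.7%), with COX7C at 3.48. Proteasome genes had 4 of 42 (9.52%), with Prosbeta6 at 3.08. Both lists hold genes named as paralogues of general subunits, by a final T or R in the proteasome list and a final L in the other. The share was 0 of 14 such proteasome genes and 4 of the other 28 (14.3%), and 2 of 21 such oxidative phosphorylation genes and 11 of the other 45 (24.4%). Translation initiation genes had 5 of 36, with eIF4G2 at 5.95, in a region that also lay at an end of CG33111. RNA polymerase II and TFIID genes had 4 of 28, with Polr2I highest at 2.37, and splicing factor genes 3 of 20, with SmE at 3.31. The SmE region also lay at an end of CG34132. Cell cycle genes had 4 of 22 (18.2%), and 3 had a fold above 3 (13.6% of the list, against 3.81% of all genes). These were the Cdc25 gene stg (4.69, interval 4.26 to 5.16), CycE (3.215) and CycB (3.13). With so few genes this is not read as a trait of the list.

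Lists of genes used in other tissues were mixed. Over all autosomal coding genes, 15.6% had a region at an end and 3.81% one of fold 3 or more. Neuron genes had 2 of 14, Csp (3.64) and brp (1.58), although 13 of the 14 are over 5 kb long, a class in which 27.0% of all genes had a region at an end and 10.5% one of fold 3 or more. Muscle genes had 4 of 18, with Mef2, a myogenic factor gene, at 3.145. Hemocyte genes had 7 of 20 and 5 with a fold of 3 or more. Of these, LanB2 (5.66), Col4a1 (3.51), LanA (3.46) and Ppn (3.17) encode basement membrane or other matrix proteins and gcm (5.03) a glial and blood cell factor. The scavenger receptor gene crq (2.45) and SPARC (1.92) had lower folds, and the crq region also lay at an end of shv. The matrix genes vkg and LanB1 had no region at an end, nor had the blood cell genes Hml, Pxn, NimC1 and srp. Testis genes had 1 of 19, topi (2.299), whose region has its summit 135 bp outside topi and 36 bp inside the ribosomal protein gene RpS29. Chemoreceptor genes had 16 of 154 (10.4%) with Gr94a highest at 3.14, and cuticle protein genes 15 of 114 (13.2%) with Cpr73D highest at 2.84. The Gr94a region, 2787 bp wide, had its summit 190 bp outside Gr94a and inside another coding gene. Gut protease genes had 3 of 27 and heat shock genes 2 of 19, Hsp23 (3.15) and Hsc70-5 (2.79).

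**Figure D5:**
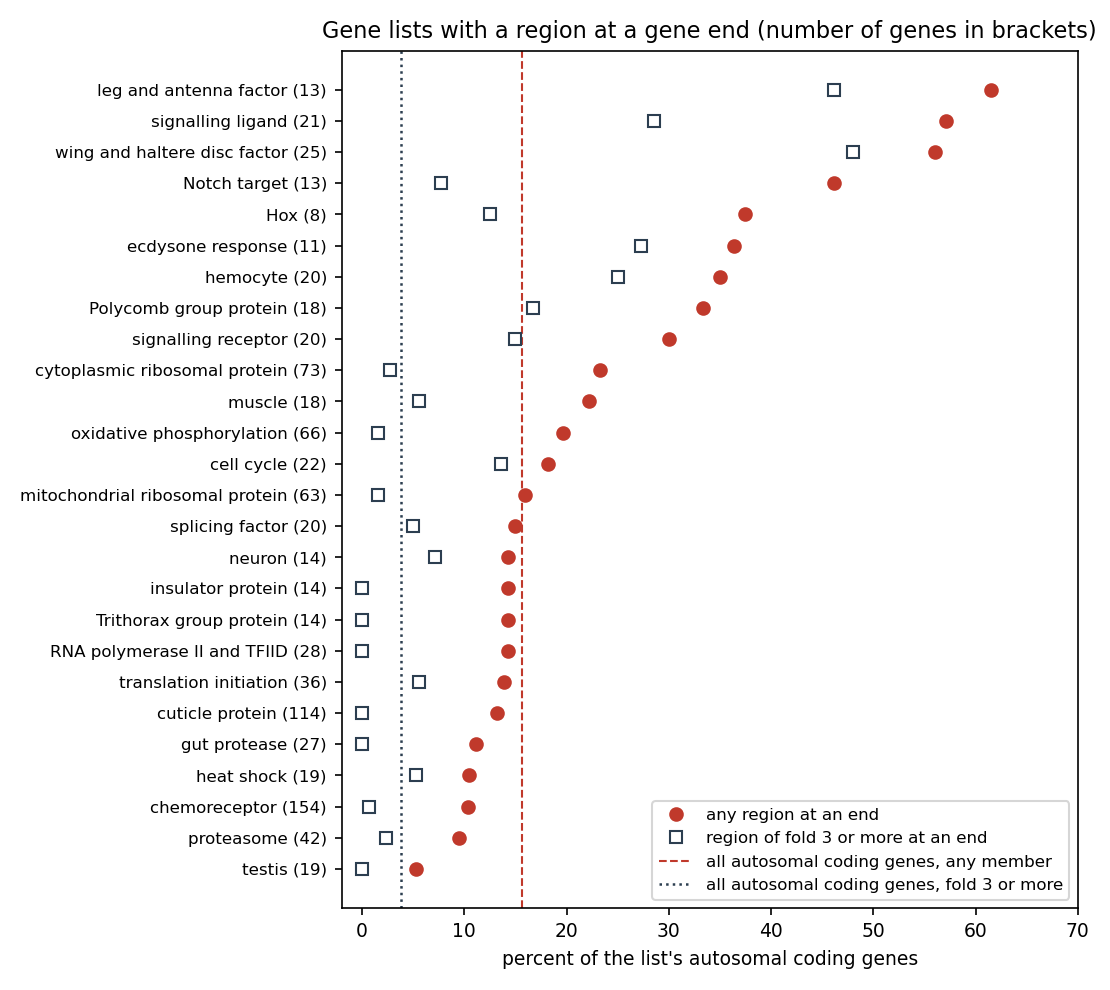
Percent of the autosomal coding genes of each list (x axis, list size in brackets) with any gene-end region (filled circles) and with one of fold 3 or more (open squares); vertical lines give the same shares over all autosomal coding genes, 15.6% and 3.81%. Disc factors and signalling ligands stand to the right on both measures, with lists of general cell machinery nearer the lines.

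Gene length moved with these lists, and its part in the differences was not tested. Of the 25 wing and haltere factors, 22 are over 5 kb; 12 of the 22 had a region at an end and 10 a fold of 3 or more, against 27.0% and 10.5% of all 2770 genes of that length. Of the 17 ligand genes over 5 kb, 11 had a region at an end and 6 a fold of 3 or more. The 10 Trithorax group genes over 5 kb had 1 and no fold of 3.

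Set against the tissue of origin, 7 of the 12 autosomal marker genes of the wing and haltere disc had a region at an end: nub, rn, tsh, wg, en, ptc and salm. It was 2 of 7 for hemocyte markers (gcm and crq), 1 of 5 for neuron markers (brp) and 1 of 3 for muscle markers (Mef2). Over all autosomal coding genes the share was 15.6%, and 27.0% over those longer than 5 kb. The counts for the other cell types, each of a few genes, are too small to be set apart from these shares. The larger hemocyte list above had 7 of 20, with 5 at a fold of 3 or more. Every marker named here with a region is also in one of the lists above, so these counts are no separate result. Ubx, which gives the haltere its identity, had no region at an end, nor had ap, vg, hth or dpp. Accessibility is not expression, so these counts do not show which genes were active.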

How the data were processed

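The deposited list has 10 columns and no header. Its tool layout was read from the values: the authors' score, fold enrichment (a ratio of summit pileup to local background), and −log10 p-value and −log10 q-value at the summit, all deposited per region. The submitters' processing notes name MACS2 2.2.6, Bowtie2 2.3.5.1, dm6 and BDGP6 as builds, bedtools 2.29.2, Trim Galore 0.6.4, and SAMtools 1.13. What each did, any shift of reads for the transposase, and pooling are not given in the sources used here.

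At each summit the whole-number pileup was solved from the deposited fold and p-value (relative error of p at most 2.11e-05), and intervals are exact Poisson 95% intervals at fixed background, for counting error only. Sequencing depth per library is unknown. Gene ends came from RefSeq's Release 6 table, with the coordinates of dm6 (13946 coding genes, 11645 on the arms). Planned shares at gene starts and of promoter motifs were not run, since strand and sequence were not used here. Functions were checked on made data.

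The regions, lists and named genes were chosen with earlier results of these data known. Named genes are those at the 12 highest folds, at the 3 widest regions, at the 3 regions with the most gene ends, at the limit of 200 bp, with the 3 highest folds among genes with separate regions at both ends, and, from each of 26 lists, chiefly up to 3 with the highest fold and up to 2 with none. Some genes that meet this rule are not reported here. Other genes were named after their values were seen, among them further members of the disc, signalling, Polycomb and hemocyte lists. The listed names Dl and SmG matched no gene. The list of testis genes lost don after the values were seen, since the name had matched another gene. Analyses used Python 3.11.15, numpy 2.4.6, pandas 2.3.3, SciPy 1.17.1 and matplotlib 3.10.9.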

Additional observations from a re-analysis of the deposited data

How the results depend on the processing

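The number of gene-end regions was 906 with a window of 100 bp, 4754 with 500 bp, 2005 with genes of any kind and 1122 in the higher-scoring 50%. With 100 bp, they made up 3.97% of autosomal regions, the median fold was 2.31, the median pileup 129 reads, 9.38% lay at several genes, 8.53% of genes had one, 54.75% of summits were outside the nearest gene and the median fold was 1.22 times that of other regions (1.17 at 200 bp). With 500 bp the same values were 20.8%, 1.97, 109 reads, 28%, 46.2%, 31.8% and 1.05, and 13.8% had a fold of 3 or more. In the higher-scoring 50% they were 9.88% of regions, with a median fold of 2.62, width of 640.5 bp and pileup of 150 reads; 10.8% of genes had one, 36.7% had a fold of 3 or more and 50.3% lay outside the nearest gene. With genes of any kind the share of regions was 8.78% and that at several genes 13.6%. Other values stayed within their 95% intervals, as did all without the 2R stretch of raised background. Merging joined 0 regions.

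At 500 bp, 20 of 26 lists gained more than 1.5 times; cuticle protein genes went up to 63 of 114 and wing and haltere factors to 20 of 25, with 46.2% of all genes. The windows change how much sequence is counted. No paired analysis was possible because 1 list names no replicate. The shares of fold 3 or more and of summits outside genes, and the ratio of medians, were added after seeing the data. The lowest deposited −log10 q of a gene-end region was 1.35, and what depth limits was not tested, since the depth of the libraries is unknown.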

Other observations

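Of the 11 wing and haltere factors without a summit within 200 bp of an end, 6 had one within 500 bp. With that window 20 of the 25 had one, against 46.2% of all autosomal coding genes. The nearest summit to an end of ara, an Iroquois gene, was 202 bp off with a fold of 3.82, that of kni 239 bp off with 3.33 and that of mirr 378 bp off with 4.26. For ap, the dorsal selector gene, it was 550 bp off with 5.03, for vg, a wing selector gene, 265 bp off with 2.27, and for dpp, the BMP ligand gene, 242 bp off with 1.96. The nearest summit to an end of pdm3 was 267 bp off with 8.88, and that of ush 383 bp off with 2.085. It was farther for bs (720 bp, 1.875), ab (1069 bp, 1.88), inv (1110 bp, 6.32) and hth (3346 bp, 2.38). The Hox gene Antp had its nearest summit 1767 bp off with a fold of 7.23, Ubx 1418 bp off with 2.05 and abd-A 2427 bp off with 1.76. Of the 17 heat shock genes without a summit within 200 bp, 5 had one within 500 bp, and distances ran from 268 bp at Hsp27 (3.01) to 8012 bp at Hsp70Bbb (2.72). The genes named here were chosen after their values were seen.

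Some gene-end regions lay in a stretch of 2R from 22.8 to 24.3 Mb, where the local background is raised. The 39 gene-end regions there had a median background of 102.9 reads and a median pileup of 219, against 53.1 and 116 in the 386 on the rest of the arm. The median fold was 1.99 on the stretch and 2.14 on the rest, and 28.2% and 20.7% reached a fold of 3. Copy number in these cells was not tested.

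Non-coding genes shared some of these places: 63 gene-end regions, or 3.85%, also had the summit within 200 bp of an end of a non-coding gene. The weakest gene-end region had a fold of 1.35 (1.10 to 1.64) and lay at Tailor, an RNA uridylation gene.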
